A study of Homo sapiens with 12 samples.

Results

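The 10 genes described here are ID1, ID2, ID3, ID4, SMAD3, SMAD6, SMAD7, SKIL, BAMBI and TGFB2, a set of genes that respond to, or act in, transforming growth factor beta (TGF-beta) and bone morphogenetic protein (BMP) signalling. They were chosen by symbol from a table of read counts for 27814 named genes, all 10 were found, and all 10 had enough counts to be among the 16208 genes tested. The counts came from bulk RNA sequencing of BT474, a human breast cancer cell line with amplified HER2 and hormone receptors, in 12 libraries. Parental BT474 cells and cells labelled BRD8 knockout (KO) were each given either DMSO, the solvent, or 200 nM neratinib for 4 h, with 3 libraries in each of the 4 groups. All groups were grown in RPMI medium with fetal bovine serum. BRD8 encodes a bromodomain protein of the chromatin complex formed by EP400 and TIP60, and neratinib blocks the kinases of the ErbB receptors, HER2 among them, irreversibly. The labels leave out the BRD8 edit, and whether the KO-labelled cells derive from 1 clone. Nothing in the labels ties replicates to separate cultures, so that p-values reflect the spread between these libraries only, and that spread may be technical.

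Ligands of the TGF-beta family bind pairs of serine/threonine kinase receptors, which phosphorylate receptor-regulated SMAD proteins. SMAD2 and SMAD3 carry TGF-beta and activin signals, SMAD1, SMAD5 and SMAD9 carry BMP signals, and both kinds act in the nucleus with SMAD4. ID1, ID2, ID3 and ID4 encode helix-loop-helix proteins without a DNA-binding region that hold bHLH transcription factors off DNA, and ID1 and ID3 are classical BMP targets. SMAD6 and SMAD7 are inhibitory SMADs, SKIL encodes the SMAD co-repressor SnoN, BAMBI encodes a pseudoreceptor that lacks the kinase domain, and all 4 are known as feedback inhibitors of the pathway.

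The libraries held 32471198 to 44726160 counts over named genes. Levels are given as CPM, which here means read counts divided by library size after scaling with the trimmed mean of M values (TMM). Adjusted p-values are Benjamini-Hochberg values over all 16208 genes, with a call below 0.05, and the KO label and neratinib effects are log2 fold changes from edgeR. BRD8 mRNA, which checks the genotype label, lay between 63.5 and 64.9 CPM in parental and between 66.1 and 68.8 CPM in KO-labelled libraries in DMSO, and between 231.9 and 241.6 CPM against 153.3 to 158.0 CPM in neratinib. In DMSO it was thus not lower with the KO label, and since the edit is not described this neither establishes nor refutes the label. All 10 BT474 and luminal markers listed, ERBB2, ESR1 and GATA3 included, were above 1 CPM in every group, but their levels moved. GATA3 went from 434.5 to 249.7 CPM with the KO label in DMSO and from 389.3 to 171.4 CPM in neratinib, and PGR from 79.8 to 34.7 CPM with the KO label in DMSO. Others of the list rose with the KO label in DMSO, KRT8 from 3513.7 to 3896 CPM and ERBB2 from 8176.5 to 8877.2 CPM. The list summed to 17514.2 to 17688 CPM in parental DMSO and 18438.9 to 18792 CPM in KO-labelled DMSO libraries. Between parental DMSO and KO-labelled neratinib, FOXA1 went from 772.7 to 362.3 CPM and GRB7 from 424.0 to 2943.3 CPM, and the part of these moves in the members' changes was not tested. Of 9 fibroblast markers COL1A1 and COL3A1 reached 1 CPM in any group, with list sums of 70.2 to 116.8 CPM over the 12 libraries, while LUM, PDGFRB, THY1 and FAP were at or near 0. The 7 immune markers summed to 3.41 to 7.52 CPM, mostly CD68, with CD3E at 0 in 3 of the 4 groups. The 5 endothelial markers summed to 12.1 to 15.3 CPM in parental and 33.9 to 41.0 CPM in KO-labelled libraries, nearly all of it VWF. CDH5 moved in the same direction as VWF, from 0.166 to 1.23 CPM with the KO label in DMSO and from 0.146 to 0.917 CPM in neratinib, while PECAM1, KDR and TEK stayed at or below 0.118 CPM on average. The part of these markers in the results was not tested. The basal and mesenchymal list (KRT5, KRT14, TP63, VIM, ZEB1 and CDH2) was lowest in parental DMSO libraries (32.2 to 32.7 CPM summed) and highest in KO-labelled neratinib libraries (84.1 to 87.3), with 45.8 to 50.1 for KO-labelled DMSO and 51.5 to 52.6 for parental neratinib. VIM made up most of each sum. It was at 21.8 CPM in parental DMSO, 34.6 in KO-labelled DMSO, 44.9 in parental neratinib and 71.7 in KO-labelled neratinib. Between parental DMSO and KO-labelled neratinib, ZEB1 fell from 0.685 to 0.362 CPM, CDH2 from 2.81 to 1.93 and KRT14 from 0.113 to 0.0468. ID3 and ID4 below follow the same order of groups as the sum, and the part of this list in their levels was not tested. In bulk RNA, a change in the share of cells that express a gene and a change per cell cannot be told apart.

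Promoter windows of 4 members are shown. ID1 and ID4 are ID genes that rose in these data, and SMAD6 and SMAD3, which lie close to each other on chromosome 15, moved in opposite directions with the genotype label. ID3 moved more like ID4 than ID1 did, but its window lies within annotated exons and is not printed. Each window is the 250 bases before the gene's start in RefSeq (GRCh38.p14), 5′ to 3′ on the strand of the gene, which is the plus strand for all 4. They lie at chr20:31605039-31605288 for ID1, chr6:19837120-19837369 for ID4, chr15:67065352-67065601 for SMAD3 and chr15:66701986-66702235 for SMAD6, and the last 6 bases of the ID1 and 8 of the SMAD6 window fall in exons of GENCODE 29. The SMAD3 window touches no exon there but lies inside the gene, which GENCODE 29 starts at 67063763. Capitals mark matches to any motif searched: the TATA box (TATAAA) in ID1 and ID4, a SMAD box (CAGAC) in ID4, an E-box (CACGTG) and 2 GC-rich SMAD sites (GGCGCC) in SMAD3, and the SMAD-binding palindrome (GTCTAGAC) in SMAD6.
ID1: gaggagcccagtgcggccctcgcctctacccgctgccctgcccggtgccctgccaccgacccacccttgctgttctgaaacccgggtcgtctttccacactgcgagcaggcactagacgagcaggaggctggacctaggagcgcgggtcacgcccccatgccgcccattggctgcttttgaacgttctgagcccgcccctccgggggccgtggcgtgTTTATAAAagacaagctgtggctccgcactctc
ID4: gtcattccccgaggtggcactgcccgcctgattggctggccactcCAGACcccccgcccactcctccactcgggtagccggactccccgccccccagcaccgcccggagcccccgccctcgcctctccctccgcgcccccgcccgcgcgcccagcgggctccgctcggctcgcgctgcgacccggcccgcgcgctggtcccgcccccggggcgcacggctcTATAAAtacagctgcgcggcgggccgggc
SMAD3: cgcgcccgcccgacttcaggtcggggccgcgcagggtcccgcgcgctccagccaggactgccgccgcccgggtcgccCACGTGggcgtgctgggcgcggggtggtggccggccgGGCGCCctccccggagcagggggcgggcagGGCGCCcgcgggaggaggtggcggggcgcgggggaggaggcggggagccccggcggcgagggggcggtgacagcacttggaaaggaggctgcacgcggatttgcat
SMAD6: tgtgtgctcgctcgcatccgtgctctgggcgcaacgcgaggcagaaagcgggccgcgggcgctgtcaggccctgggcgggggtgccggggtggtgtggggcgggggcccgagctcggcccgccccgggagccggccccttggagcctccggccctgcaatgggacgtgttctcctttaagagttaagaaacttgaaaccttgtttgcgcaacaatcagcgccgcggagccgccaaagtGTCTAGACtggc
Both strands were searched in the windows of all 10 members, and the shares refer to 35116 RefSeq windows of the same length. The 8-base palindrome occurred in 0.182% of windows and, among the members, in that of SMAD6 alone, 5 to 12 bases before the start. CAGAC or its reverse complement GTCTG occurred in 38.0% of windows and in those of ID3, ID4, SMAD7, SKIL, BAMBI and TGFB2. GGCGCC occurred in 16.4% of windows and in those of SMAD3, SKIL and BAMBI, with 3 copies in BAMBI. CACGTG occurred in 6.345% and in those of SMAD3 and TGFB2, where it overlaps a SMAD box in TGFB2. A forkhead motif (GTAAACA) occurred in 2.98% of windows and in none of the members', and no motif searched was found in the ID2 window. TATAAA, which was added to the search after the windows had been read, occurred in 10.7% of windows and in those of ID1, ID4 and TGFB2, within 24 to 33 bases of the start (in ID1 on both strands, overlapping). A match describes these letters only and is not a measured binding site.

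ID1, ID3 and ID4 rose with the KO label, rose with neratinib, and were highest in KO-labelled cells in neratinib, while ID2 barely moved. ID1, on chromosome 20 from 31605283 to 31606515 (plus strand, GENCODE 29, GRCh38), was at 19.6, 20.8 and 19.8 CPM in parental DMSO libraries, 46.3, 49.6 and 46.2 in KO-labelled DMSO, 46.5, 46.6 and 47.1 in parental neratinib and 93.4, 88.7 and 90.1 in KO-labelled neratinib. Its level in the KO-labelled DMSO and parental neratinib libraries overlapped, and each of these groups lay above the highest parental DMSO library and below the lowest KO-labelled neratinib library. In log2 terms ID1 rose by 1.24 (SE 0.039) with the KO label in DMSO and by 0.96 (SE 0.03) in neratinib, and by 1.22 (SE 0.039) with neratinib in parental and 0.93 (SE 0.03) in KO-labelled cells (edgeR quasi-likelihood adjusted p of at most 4.89e-29 for all 4).

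ID3, on chromosome 1 from 23557918 to 23559794 (minus strand), had the widest range of the ID genes. Its libraries held 16.3, 16.9 and 16.8 CPM in parental DMSO, 49.7, 50.3 and 51.8 in KO-labelled DMSO, 61.0, 63.4 and 60.5 in parental neratinib and 154.1, 155.9 and 154.0 in KO-labelled neratinib. No library of any group overlapped with another group. From parental DMSO to KO-labelled neratinib, mean ID3 rose from 16.7 ± 0.351 to 154.7 ± 1.09 CPM (SD, n = 3), 9.27-fold. With the KO label the rise was 1.60 on the log2 scale in DMSO (SE 0.037) and 1.33 in neratinib (SE 0.026), and with neratinib it was 1.88 in parental (SE 0.036) and 1.61 in KO-labelled cells (SE 0.027), with edgeR quasi-likelihood adjusted p of at most 2.57e-34.

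ID4, on chromosome 6 from 19837386 to 19840684 (plus strand), was the least abundant ID gene. It was at 1.51, 2.01 and 1.61 CPM in parental DMSO, 3.27, 3.68 and 3.31 in KO-labelled DMSO, 6.33, 6.40 and 6.23 in parental neratinib and 12.8, 11.7 and 11.3 in KO-labelled neratinib libraries. The 4 groups did not overlap. The KO label went with a log2 rise of 1.01 in DMSO (SE 0.125), which is 2.01-fold and so just past a 2-fold threshold, and 0.92 in neratinib (SE 0.072). Neratinib raised it by 1.89 (SE 0.109) and 1.79 (SE 0.082) in parental and KO-labelled cells (edgeR quasi-likelihood adjusted p of at most 1.59e-09 for all 4 comparisons).

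ID2, on chromosome 2 from 8678845 to 8684453 (plus strand), lay between 97.4 and 110.9 CPM in all 12 libraries. Its group means were 103.1 ± 3.91 CPM in parental DMSO, 100.1 ± 2.68 in KO-labelled DMSO, 98.9 ± 1.78 in parental neratinib and 106.7 ± 3.89 in KO-labelled neratinib (SD, n = 3). The log2 differences were -0.04 with the KO label in DMSO (edgeR quasi-likelihood adjusted p = 0.187), 0.11 with it in neratinib (0.000614), -0.06 with neratinib in parental cells (0.0503) and 0.09 in KO-labelled cells (0.00324). With a coefficient of variation of 0.1 set for every gene, neither the call with the KO label in neratinib nor that with neratinib in KO-labelled cells was made (edgeR likelihood ratio, Benjamini-Hochberg adjusted p = 0.491 and 0.522), and the second was also lost with no filter on low counts (edgeR quasi-likelihood adjusted p = 0.0847). The neratinib calls also depended on single libraries. That in KO-labelled cells was lost without KO-labelled DMSO replicate 3 (log2 0.05, edgeR quasi-likelihood adjusted p = 0.097) or KO-labelled neratinib replicate 1 (0.06, 0.0576), and that in parental cells was made when any of 7 libraries was left out: parental DMSO replicate 1, any KO-labelled DMSO replicate, parental neratinib replicate 3, or KO-labelled neratinib replicate 1 or 3 (log2 -0.06 to -0.09, edgeR quasi-likelihood adjusted p from 0.004 to 0.0402). It had the opposite sign with library totals alone, at 0.02. The difference in DMSO was called without parental DMSO replicate 1 (log2 -0.07, edgeR quasi-likelihood adjusted p = 0.0242).

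Together the ID genes changed in composition as well as in sum. Per kilobase of merged exon in GENCODE 29, the 4 genes summed to 73.0 ± 2.27 CPM in parental DMSO, 113.4 ± 2.59 in KO-labelled DMSO, 119.8 ± 0.743 in parental neratinib and 213.1 ± 3.62 in KO-labelled neratinib (SD, n = 3). ID2 made up 64.0% ± 0.766 of that sum in parental DMSO and 22.7% ± 0.453 in KO-labelled neratinib libraries. The share of ID3 went the other way, from 12.7% ± 0.141 to 40.4% ± 0.807, and that of ID1 from 22.3% ± 0.593 to 34.5% ± 0.487. ID4 held 0.998% ± 0.137 and 2.39% ± 0.109. These shares depend on the exon lengths, since the annotation that the authors counted on is not given in the sources used here.

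**Figure D1:**
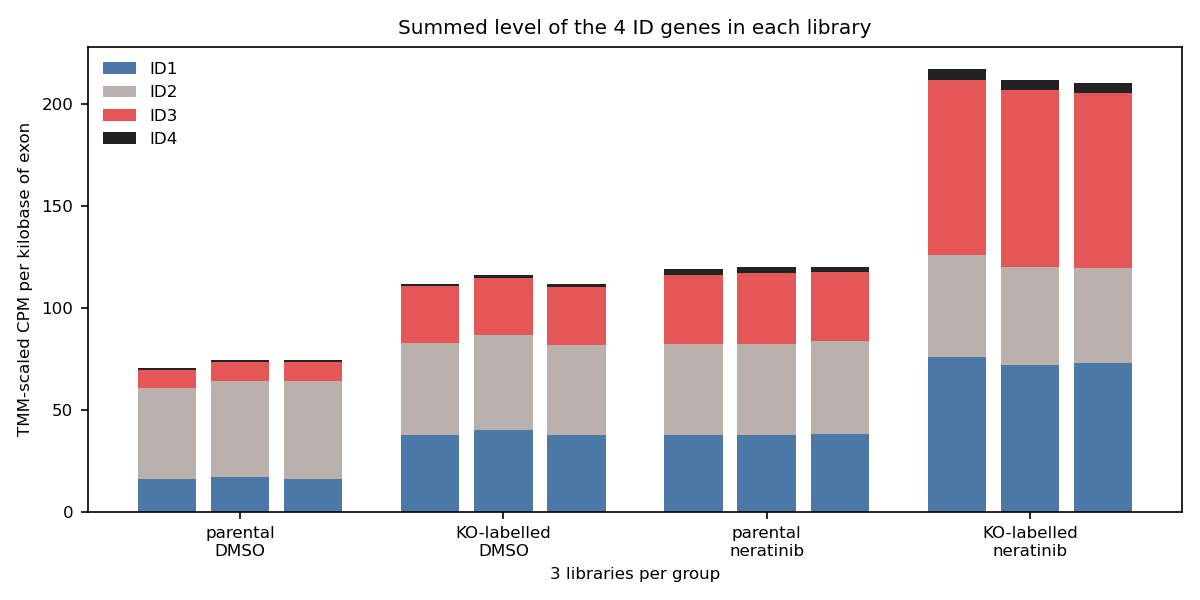
Stacked bars give the TMM-scaled CPM per kilobase of exon of ID1, ID2, ID3 and ID4 in each of the 12 libraries, from 0. The grey ID2 part stays at about the same height while the sum lies between 70.4 and 74.4 in the parental DMSO libraries and between 210.4 and 217.2 in those of KO-labelled cells given neratinib.

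The ID1 and ID3 responses to neratinib were smaller on the log2 scale in KO-labelled cells, where both genes started higher. The difference between the responses (the interaction, KO-labelled minus parental) was -0.29 for ID1 (SE 0.05, 95% interval -0.40 to -0.17) and -0.27 for ID3 (SE 0.046, -0.38 to -0.16), with edgeR quasi-likelihood adjusted p of 6.05e-06 and 4.43e-06. For ID4 it was -0.09 (95% interval -0.43 to 0.24), which did not pass (edgeR quasi-likelihood adjusted p = 0.64) and leaves room for a difference of the size seen in ID1 and ID3. ID2 had an interaction of 0.15 (SE 0.039, edgeR quasi-likelihood adjusted p = 0.00161). With a coefficient of variation of 0.1 set for every gene in an edgeR likelihood ratio test, in place of the 1.86% estimated from these libraries, none of these interactions was called (Benjamini-Hochberg adjusted p = 0.363 for ID1, 0.384 for ID3 and 0.696 for ID2). The rises of ID1, ID3 and ID4 in the 4 pairwise comparisons all kept their calls under that setting.

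Genes around ID1, ID3 and ID4 on the chromosome mostly had smaller log2 changes than these did. Among 50 tested protein-coding genes around ID1 (25 to a side), the median log2 change was -0.12 with the KO label in DMSO, -0.17 with it in neratinib, and -0.22 and -0.27 with neratinib in parental and KO-labelled cells. In DMSO, 43 of 50 had a smaller log2 change than ID1. Around ID3 the median was -0.04 and all 50 had a smaller one, and around ID4 it was -0.02 and 48 of 50 did. With neratinib in parental cells, the medians around ID3 and ID4 were -0.03 and 0.08. The medians over all genes tested were between -0.02 and 0.04 in the 4 comparisons.

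The inhibitory SMAD genes behaved differently from each other. SMAD6, on chromosome 15 from 66702228 to 66782848 (plus strand), was higher with the KO label, and its differences with neratinib did not pass the test. It was at 4.15, 4.81 and 3.64 CPM in parental DMSO and 3.91, 4.50 and 4.55 in parental neratinib libraries, against 7.35, 7.41 and 7.54 in KO-labelled DMSO and 7.28, 6.97 and 7.29 in KO-labelled neratinib. Every KO-labelled library was above every parental library, and the parental groups overlapped. Within KO-labelled cells the neratinib libraries all lay below the DMSO libraries, a difference that did not pass the test. SMAD6 rose by 0.82 on the log2 scale with the KO label in DMSO (SE 0.088) and by 0.74 in neratinib (SE 0.088), with edgeR quasi-likelihood adjusted p of at most 5.79e-10. The neratinib responses were 0.03 (95% interval -0.20 to 0.26) in parental and -0.05 (-0.23 to 0.13) in KO-labelled cells and did not pass (edgeR quasi-likelihood adjusted p = 0.779 and 0.559).

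SMAD7, on chromosome 18 from 48919853 to 48952052 (minus strand), rose with neratinib and was lower in KO-labelled cells. Its libraries were at 15.5, 16.0 and 16.5 CPM in parental DMSO, 13.0, 12.9 and 13.9 in KO-labelled DMSO, 24.2, 27.1 and 23.9 in parental neratinib and 20.6, 19.3 and 19.4 in KO-labelled neratinib, with no overlap between groups. Neratinib raised it by 0.64 (SE 0.05) and 0.58 (SE 0.055) on the log2 scale in parental and KO-labelled cells (edgeR quasi-likelihood adjusted p of at most 6.83e-13). With the KO label it fell by 0.27 in DMSO (SE 0.057) and 0.34 in neratinib (SE 0.049), with edgeR quasi-likelihood adjusted p of 3.69e-05 and 4.45e-08, and the call in DMSO was lost with a coefficient of variation of 0.1 (Benjamini-Hochberg adjusted p = 0.0725, edgeR likelihood ratio).

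SMAD3, the receptor-regulated SMAD among the members, lies on chromosome 15 from 67063763 to 67195195 (plus strand). It fell with the KO label, in the opposite direction to the nearby SMAD6. Its level was 20.5, 20.3 and 21.1 CPM in parental DMSO, 14.7, 15.5 and 14.1 in KO-labelled DMSO, 23.0, 23.1 and 22.3 in parental neratinib and 16.8, 16.8 and 16.9 in KO-labelled neratinib. The 4 groups did not overlap. The fall was 0.48 in DMSO (log2 fold change -0.48, SE 0.048) and 0.44 in neratinib (log2 fold change -0.44, SE 0.047), with edgeR quasi-likelihood adjusted p of at most 2.73e-11. The neratinib responses of 0.14 and 0.18 passed in both genotypes (edgeR quasi-likelihood adjusted p = 0.00333 and 0.00127) but not with a coefficient of variation of 0.1 (0.311 and 0.204, edgeR likelihood ratio, Benjamini-Hochberg adjusted p). The 50 genes around SMAD3 had a median of -0.08 and those around SMAD6 of -0.09 with the KO label in DMSO. Of the 50 around SMAD3, 10 had a lower log2 change than SMAD3 did, and of the 50 around SMAD6, 47 had a lower one than SMAD6.

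SMAD3, SMAD6 and SMAD7 showed no difference in their neratinib response between genotypes that passed the test. The interactions were 0.04 (95% interval -0.12 to 0.19), -0.08 (-0.37 to 0.21) and -0.07 (-0.24 to 0.11), with edgeR quasi-likelihood adjusted p from 0.508 to 0.684. The intervals allow differences of up to 0.37 on the log2 scale for SMAD6.

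**Figure D2:**
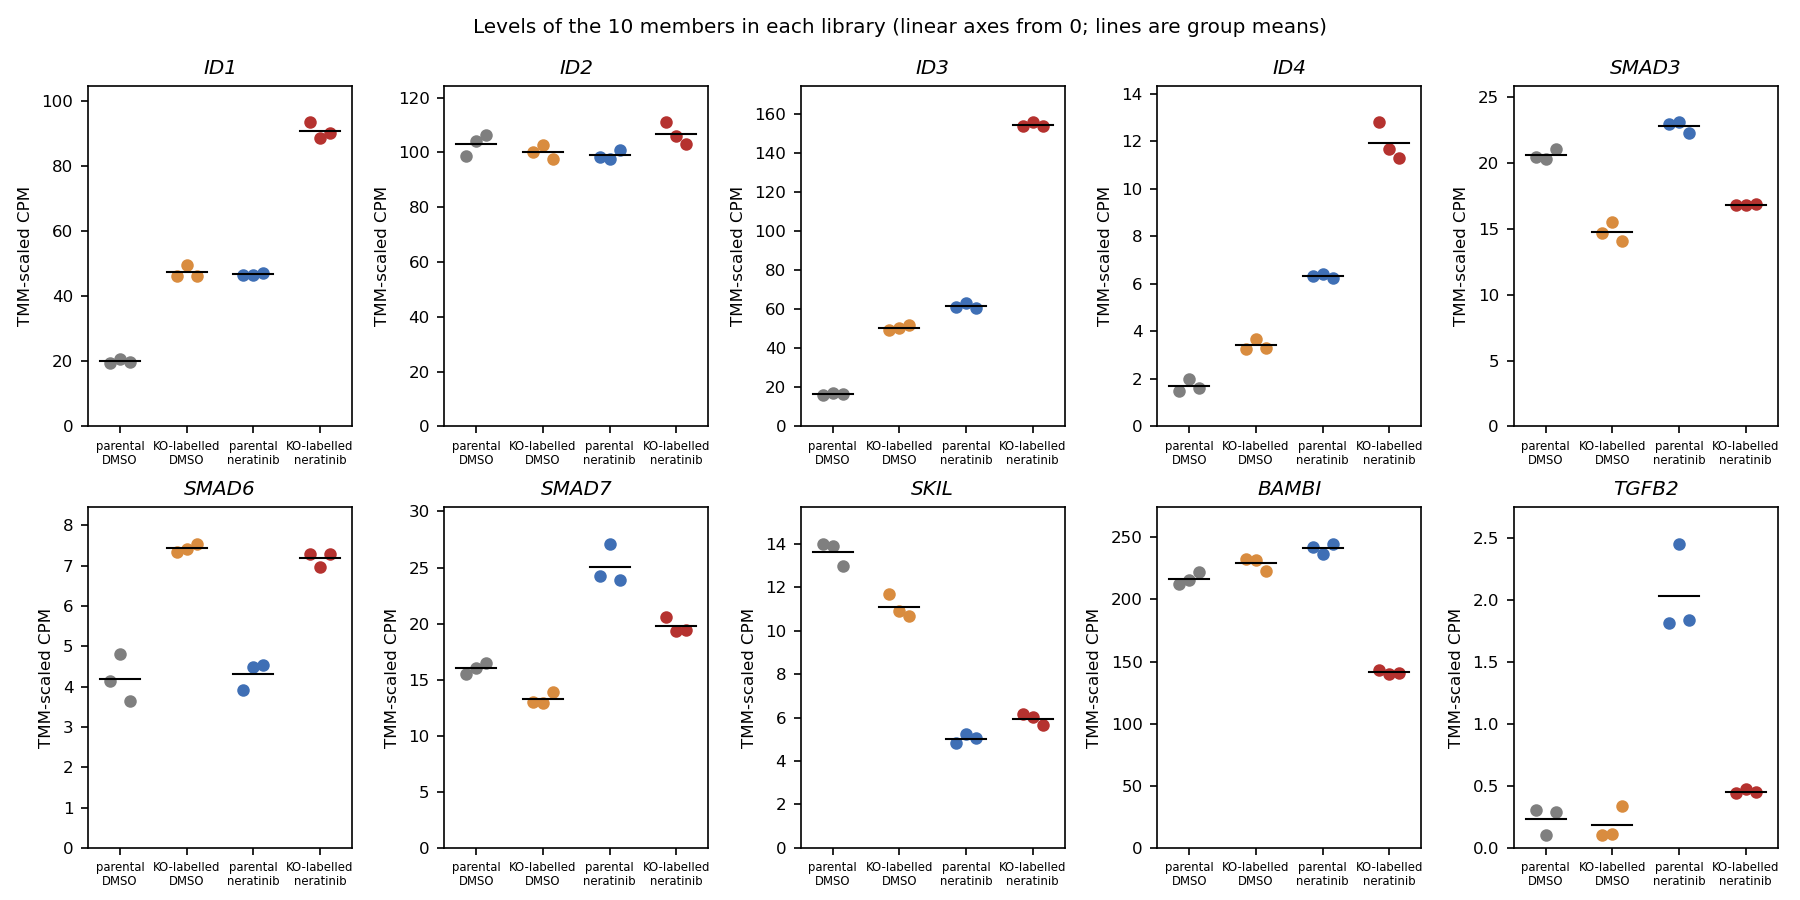
Each panel plots 1 member's TMM-scaled CPM on a linear axis from 0, with a point for each library and a line at the mean of each group of 3. ID1, ID3 and ID4 step up from parental DMSO to KO-labelled neratinib, SMAD6 is lower in every parental library (3.64 to 4.81 CPM) than in any KO-labelled one (6.97 to 7.54 CPM), and BAMBI is low in KO-labelled neratinib libraries only.

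BAMBI and TGFB2 differed most between the genotypes in how they responded to neratinib. BAMBI, on chromosome 10 from 28677342 to 28682939 (plus strand), was the most abundant member per kilobase in 3 of the 4 groups. Its libraries held 212.3, 215.4 and 221.8 CPM in parental DMSO, 232.5, 231.8 and 223.2 in KO-labelled DMSO, 242.1, 236.5 and 244.7 in parental neratinib and 143.5, 140.0 and 141.0 in KO-labelled neratinib. The KO-labelled neratinib libraries were the lowest of the 12. With neratinib BAMBI rose by 0.16 on the log2 scale in parental cells (SE 0.021) and fell by 0.70 in KO-labelled cells (SE 0.022), and the interaction was -0.85 (SE 0.03, 95% interval -0.92 to -0.78, edgeR quasi-likelihood adjusted p = 4.43e-26).

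In neratinib BAMBI was thus lower with the KO label, by a log2 value of -0.77 (SE 0.022, edgeR quasi-likelihood adjusted p = 4.96e-31), whereas in DMSO it was 0.08 higher (SE 0.021, edgeR quasi-likelihood adjusted p = 0.00051). The 2 small rises, 0.08 and 0.16, were not called with a coefficient of variation of 0.1 (edgeR likelihood ratio, Benjamini-Hochberg adjusted p = 0.606 and 0.247), and the fall and the interaction were. The 50 genes around BAMBI had a median interaction of -0.01, and 1 of them had a more negative value than BAMBI. With the KO label their median was -0.20 in DMSO and -0.31 in neratinib.

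TGFB2, on chromosome 1 from 218346235 to 218444619 (plus strand), encodes a TGF-beta ligand and was near the lower limit of what these libraries detect in DMSO. Its counts were 12, 4 and 11 in parental DMSO libraries and 4, 5 and 11 in KO-labelled DMSO libraries, and these groups overlapped. In neratinib they were 83, 81 and 71 in parental and 15, 20 and 16 in KO-labelled libraries, which did not overlap with each other or with DMSO on the CPM scale. Over the 3 libraries of each group, neratinib took TGFB2 from 27 to 235 counts in parental cells, a depth-scaled ratio of 8.51 (95% interval 5.70 to 13.2, counting error only), and from 20 to 51 counts in KO-labelled cells, a ratio of 2.64 (1.55 to 4.68).

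The fitted log2 responses of TGFB2 to neratinib were 3.08 (SE 0.267) and 1.38 (SE 0.402), with edgeR quasi-likelihood adjusted p of 4.09e-14 and 0.00197. In neratinib it was 2.13 lower with the KO label (log2 fold change -2.13, SE 0.232, edgeR quasi-likelihood adjusted p = 5.52e-11), and in DMSO the difference of -0.44 (95% interval -1.51 to 0.64) did not pass (edgeR quasi-likelihood adjusted p = 0.407). The interaction was -1.69 (95% interval -2.98 to -0.41, edgeR quasi-likelihood adjusted p = 0.0109), and without KO-labelled DMSO replicate 3, which held 11 of that group's 20 counts, it was -1.04 and was not called (edgeR quasi-likelihood adjusted p = 0.225). Without that library the response in KO-labelled cells was 2.03 in place of 1.38. Of the 50-base windows of the longest TGFB2 transcript, 26.4% also occur in the overlapping transcript TGFB2-OT1, which had 0 counts in all 12 libraries, so reads from that stretch may have been dropped or assigned to TGFB2.

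SKIL, on chromosome 3 from 170357678 to 170396835 (plus strand), was the member that neratinib lowered in both genotypes. It was at 14.0, 13.9 and 13.0 CPM in parental DMSO, 11.7, 10.9 and 10.7 in KO-labelled DMSO, 4.82, 5.23 and 5.04 in parental neratinib and 6.15, 6.05 and 5.67 in KO-labelled neratinib. No group overlapped with another, and the genotypes changed order between DMSO and neratinib. With neratinib SKIL fell by 1.45 (SE 0.069) in parental and by 0.90 (SE 0.07) in KO-labelled cells on the log2 scale (edgeR quasi-likelihood adjusted p of at most 1.84e-15). All 50 tested genes around SKIL had a higher log2 change in parental cells. With the KO label it fell by 0.30 in DMSO (SE 0.059) and rose by 0.25 in neratinib (SE 0.083), with edgeR quasi-likelihood adjusted p of 2.05e-05 and 0.00674. The interaction was 0.55 (SE 0.102, edgeR quasi-likelihood adjusted p = 1.71e-05). With a coefficient of variation of 0.1, the rise of 0.25 and the interaction were not called (edgeR likelihood ratio, Benjamini-Hochberg adjusted p = 0.158 and 0.0526). The fall of 0.30 kept its call in all alternatives, but barely. Its highest Benjamini-Hochberg adjusted p over the alternative edgeR and DESeq2 fits was 0.0499.

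**Figure D3:**
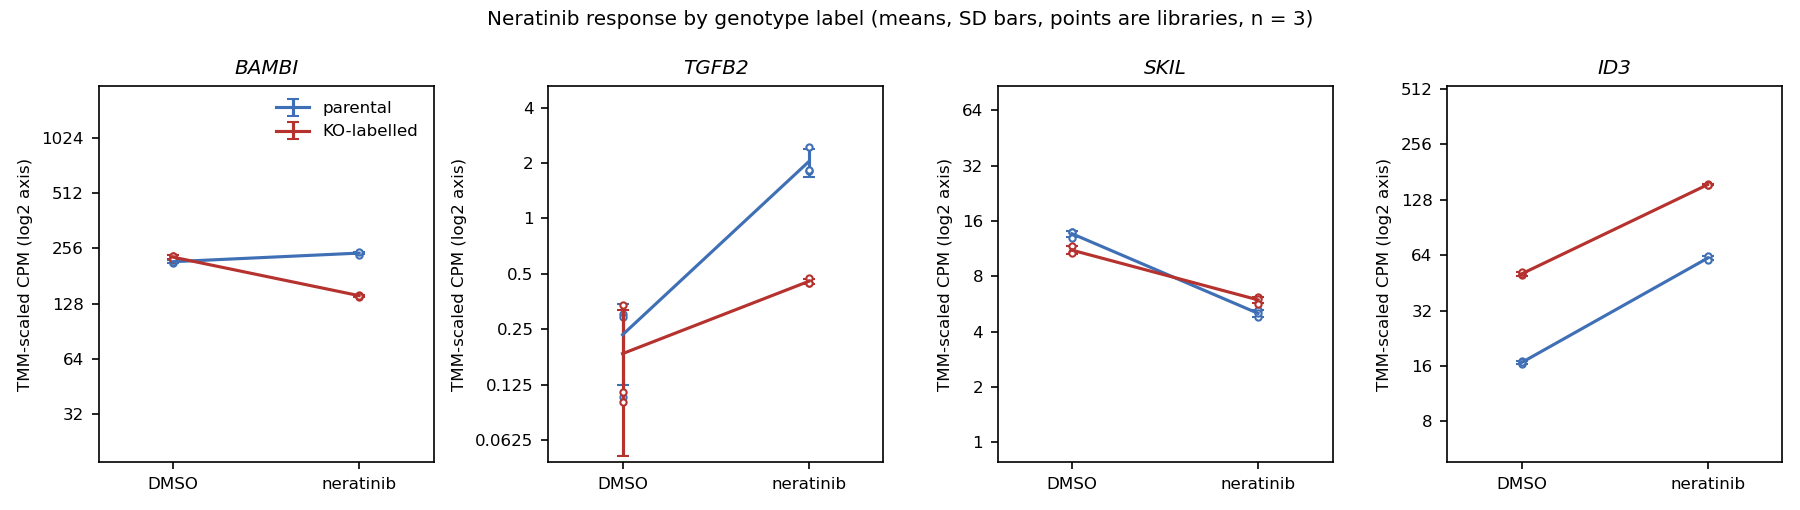
TMM-scaled CPM of BAMBI, TGFB2, SKIL and ID3 on log2 axes of equal span, in DMSO and neratinib, for parental (blue) and KO-labelled (red) cells, with means, SD bars and a point per library (n = 3). The BAMBI lines part in neratinib (236.5 to 244.7 against 140.0 to 143.5 CPM), the SKIL lines cross, and the ID3 lines run nearly parallel.

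Counted over the set, the members are read against the share of all genes tested that met the same rule. With the KO label in DMSO, 8 of 10 passed, 5 higher and 3 lower, where 71.6% of all genes tested passed, 36% higher and 35.6% lower. Of the members, 3 (ID1, ID3 and ID4) changed at least 2-fold, against 12.4% of all genes. The groups' libraries did not overlap for 8, against 72.8%. In neratinib all 10 passed with the KO label, 6 higher and 4 lower, against 71.6% (34.7% and 36.9%), 2 (ID3 and TGFB2) by at least 2-fold, against 11.2%, and all 10 without overlap, against 72.6%. With neratinib in parental cells 8 passed, 7 higher and 1 lower, against 80.7% (41.8% and 38.9%), 5 (ID1, ID3, ID4, SKIL and TGFB2) by at least 2-fold, against 20.8%, and 8 without overlap, against 81.3%. In KO-labelled cells 9 passed, 7 higher and 2 lower, against 77.2% (38.9% and 38.4%), 3 (ID3, ID4 and TGFB2) by at least 2-fold, against 14.7%, and all 10 without overlap, against 78%. The interaction passed for 6, 2 positive and 4 negative, against 46.1% (21.5% and 24.6%), and by at least 2-fold for TGFB2, against 3.27%. The median log2 change of the 10 was 0.02 with the KO label in DMSO, 0.18 with it in neratinib, 0.40 and 0.38 with neratinib in parental and KO-labelled cells, and -0.09 for the interaction, where the medians over all genes were 0.00, -0.02, 0.04, 0.02 and -0.02. The KO comparison in DMSO and the neratinib comparison in parental cells share the parental DMSO libraries, and each other pair of pairwise comparisons that have a group in common shares its libraries too.

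**Figure D4:**
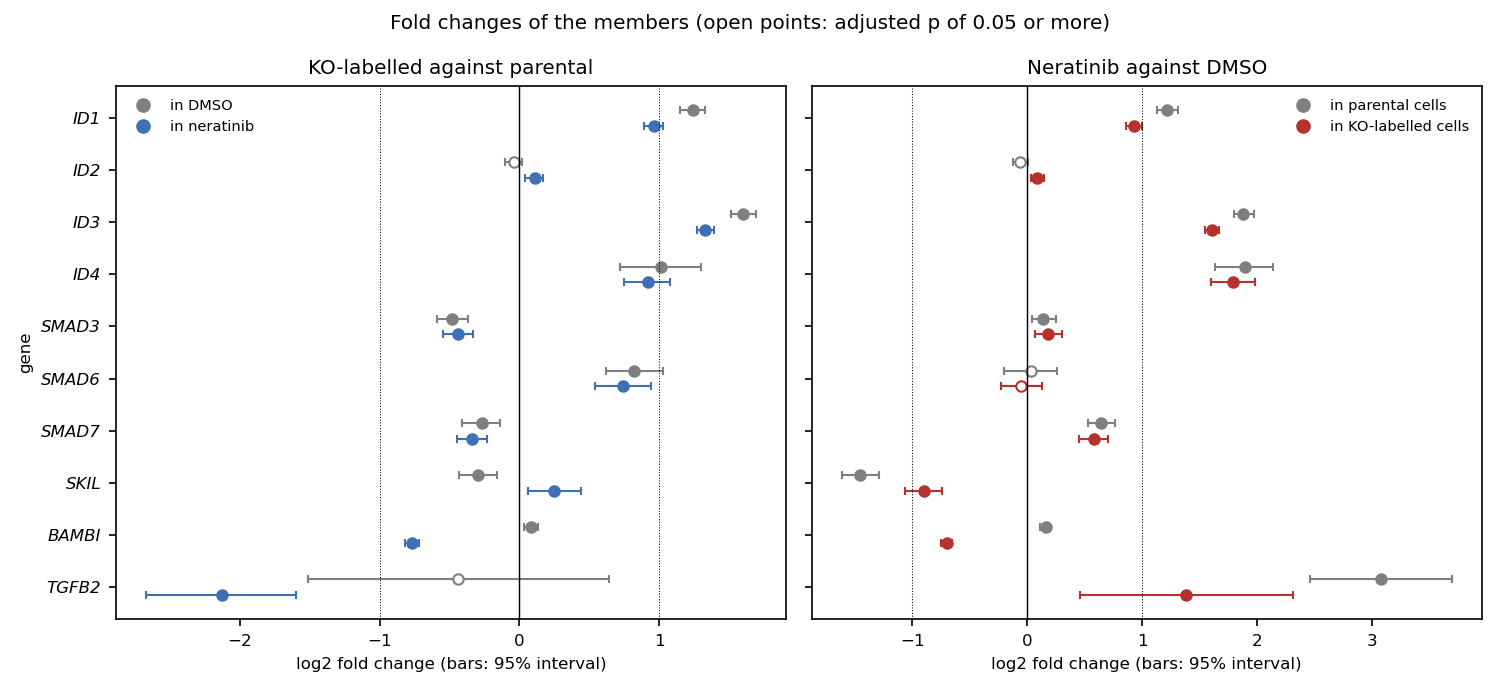
Points are log2 fold changes of the 10 members with 95% intervals, with the KO label in DMSO and neratinib at left and with neratinib in parental and KO-labelled cells at right, and open points did not pass. Dotted lines mark 2-fold. ID1, ID3 and ID4 lie to the right of 0 in all 4 comparisons, and BAMBI changes side in both panels.

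Per kilobase of exon, BAMBI led the members in parental DMSO at 93.6 CPM, followed by ID2 at 46.7, ID1 at 16.3 and ID3 at 9.28. SMAD7, SMAD3, SKIL, ID4, SMAD6 and TGFB2 followed at 3.18, 2.27, 1.75, 0.73, 0.491 and 0.0453, and no neighbours in this order overlapped in that group. In KO-labelled neratinib libraries the order began with ID3 at 86.1, ID1 at 73.6, BAMBI at 61.1 and ID2 at 48.4, again without overlap. In KO-labelled DMSO libraries, ID4 at 1.46 overlapped with both SMAD3 at 1.62 and SKIL at 1.43, and in parental neratinib SMAD6 at 0.504 overlapped with TGFB2 at 0.395.

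The genes whose profile over the 12 libraries was most like that of each member were found by the root mean square difference of log2 CPM, each gene centred on its mean, among 13546 other genes with at least 1 CPM on average. For ID1 these were DUSP8 and ARHGEF25 (differences of 0.0925 and 0.113, where ID1 itself had a spread of 0.773), and for ID3 they were ARID5A and DUSP10 (0.135 and 0.143, spread 1.14). For ID4 they were the histone genes H4C15 and H4C14 (0.12 and 0.121, spread 1.03), near-identical copies whose counts are uncertain. SKIL was nearest to MAP3K6 and NFIC (0.0662 and 0.0676, spread 0.598), BAMBI to DDIT3 and RBMX (0.0894 and 0.0916, spread 0.306), and SMAD6 to PPM1H and IMPA2 (0.0869 and 0.0881, spread 0.401). SMAD3 was nearest to RPL30 and PPT1 (0.0402 and 0.0406, spread 0.247), and SMAD7 to PNPLA6 and FAM76B (0.0544 and 0.0562, spread 0.346). The likeness was poorer for TGFB2 (FOXO4 and EFEMP2 at 0.465 and 0.471, spread 1.34), and that of ID2 (SPOUT1 and UMPS at 0.042 and 0.0442) was close to its whole spread of 0.0556. Among the members themselves, ID3 and ID4 differed by 0.281, ID1 and ID3 by 0.383 and ID1 and ID4 by 0.392.

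Of 77 other genes of the pathway, 65 had enough counts to be tested. With the KO label in DMSO, 37 rose and 11 fell, where 36% and 35.6% of all genes tested did, with a median log2 change of 0.23 against 0.00 over all genes. In neratinib 35 rose and 18 fell with the KO label (34.7% and 36.9% of all genes, median 0.18). With neratinib in parental cells 35 rose and 21 fell (41.8% and 38.9% of all genes, median 0.32), and in KO-labelled cells 32 rose and 22 fell (38.9% and 38.4%, median 0.14).

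The BMP ligand gene BMP7 was the most abundant ligand listed by CPM and fell with neratinib in both genotypes. It was at 596.3 ± 10.6 CPM in parental DMSO, 1094.3 ± 10.7 in KO-labelled DMSO, 163.4 ± 4.17 in parental neratinib and 509.0 ± 4.94 in KO-labelled neratinib (SD, n = 3). BMP7 therefore fell with neratinib, by 1.87 and 1.10 on the log2 scale, while ID1, ID3 and ID4 rose, and in either treatment it was higher with the KO label, as they were. The part of BMP7 in the levels of these ID genes was not tested. BMP6, another ligand gene, was higher with the KO label by 2.4 in DMSO and 2.0 in neratinib, at 1.86 and 1.37 CPM in KO-labelled cells. GDF5 fell with the KO label by 0.58 in DMSO and 1.39 in neratinib and GDF11 by 0.64 in neratinib, and BMP3 rose with neratinib in parental cells from 0.218 to 1.19 CPM (edgeR quasi-likelihood adjusted p of at most 4.68e-05 for the changes in this paragraph).

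Among receptor genes, the type I BMP receptor gene BMPR1B fell with the KO label in DMSO from 2.50 to 0.425 CPM (log2 fold change -2.56, SE 0.203), and the co-receptor gene TGFBR3 rose with neratinib by 1.76 in parental and 1.79 in KO-labelled cells. Of 12 receptor genes tested, 8 rose and 1 fell with the KO label in DMSO, where 36% and 35.6% of all genes did, and 7 rose and 5 fell with neratinib in parental cells, where 41.8% and 38.9% of all genes did. All 5 other SMAD genes were tested. SMAD1, which carries BMP signals, was at 25.3 ± 0.397 CPM in parental DMSO, 48.1 ± 1.58 in KO-labelled DMSO, 24.4 ± 2.10 in parental neratinib and 54.4 ± 0.815 in KO-labelled neratinib, with log2 changes of 0.93 and 1.16 with the KO label. With neratinib SMAD1 changed by -0.06 in parental cells (edgeR quasi-likelihood adjusted p = 0.247) and rose by 0.18 in KO-labelled cells (1.43e-05), with an interaction of 0.24 (0.000665, edgeR quasi-likelihood). SMAD9, also a BMP SMAD gene, rose with neratinib by 1.94 in parental and 1.85 in KO-labelled cells and with the KO label by 1.2 and 1.11, and went from 0.664 ± 0.349 to 5.58 ± 0.16 CPM between parental DMSO and KO-labelled neratinib (SD, n = 3). SMAD2, SMAD4 and SMAD5 had log2 changes between -0.42 and 0.54 in the 4 comparisons. The changes of BMPR1B, TGFBR3, SMAD1 with the KO label and SMAD9 all passed with edgeR quasi-likelihood adjusted p of at most 4.74e-06.

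Of 18 modulators of the pathway tested, 8 rose and 5 fell with the KO label in DMSO, where 36% and 35.6% of all genes did. With neratinib in parental cells 9 rose and 6 fell, where 41.8% and 38.9% of all genes did. The shares of modulators that passed, 72.2% and 83.3%, were near the 71.6% and 80.7% of all genes. TGIF2, a SMAD co-repressor gene, fell with the KO label by 1.26 in DMSO and 1.36 in neratinib and with neratinib by 1.82 and 1.92, from 23.7 CPM in parental DMSO to 2.60 CPM in KO-labelled neratinib. Neighbours on the chromosome were compared for the members only, so whether TGIF2 or GDF5 moved along with theirs was not tested. NOG, which encodes the BMP antagonist noggin, fell with neratinib by 1.58 in parental and 1.97 in KO-labelled cells, to 0.372 and 0.768 CPM. Of 17 further target genes tested, 10 rose and 2 fell with the KO label in DMSO, so that 70.6% passed where 71.6% of all genes did (36% up and 35.6% down), and 11 rose and 3 fell with neratinib in parental cells, where 41.8% and 38.9% of all genes did. The split between rises and falls was not tested. TGFBI, a matrix protein gene induced by TGF-beta, rose with the KO label in DMSO by 1.67 and the CDK inhibitor gene CDKN1A by 1.74, and ITGB6, an integrin subunit gene, was 2.25 higher with the KO label in neratinib, at 31.2 against 6.54 CPM. All changes named in this paragraph passed with edgeR quasi-likelihood adjusted p of at most 1.34e-07.

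Interactions passed for 38 of the 65 other genes, 17 positive and 21 negative, where 46.1% of all genes passed. KLF10, a TGF-beta early-response gene, fell with neratinib in parental cells from 25.9 ± 0.924 to 15.4 ± 0.571 CPM while KO-labelled libraries held 35.6 ± 0.512 CPM in DMSO and 37.6 ± 0.801 CPM in neratinib (SD, n = 3), with an interaction of 0.83 (SE 0.058, edgeR quasi-likelihood adjusted p = 4.80e-16). ITGB6 had an interaction of 0.91 (SE 0.075), GDF5 of -0.82 (SE 0.139), TGFBI of -0.76 (SE 0.104) and BMP4 of -0.69 (SE 0.087), with edgeR quasi-likelihood adjusted p of at most 4.04e-06. CCN2, a connective tissue growth factor gene, rose with neratinib in KO-labelled cells by 3.57 (SE 0.317) from 0.125 ± 0.051 to 1.46 ± 0.147 CPM. Its interaction of 1.32 (edgeR quasi-likelihood adjusted p = 0.0399) was not called without replicate 2 or 3 of parental DMSO, 1 or 2 of KO-labelled DMSO, or 2 or 3 of either neratinib group (1.01 to 1.31, edgeR quasi-likelihood adjusted p from 0.0545 to 0.196), nor with DESeq2 (Benjamini-Hochberg adjusted p = 0.0514). With a coefficient of variation of 0.1 the CCN2 interaction was also not called (edgeR likelihood ratio, Benjamini-Hochberg adjusted p = 0.0957).

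**Figure D5:**
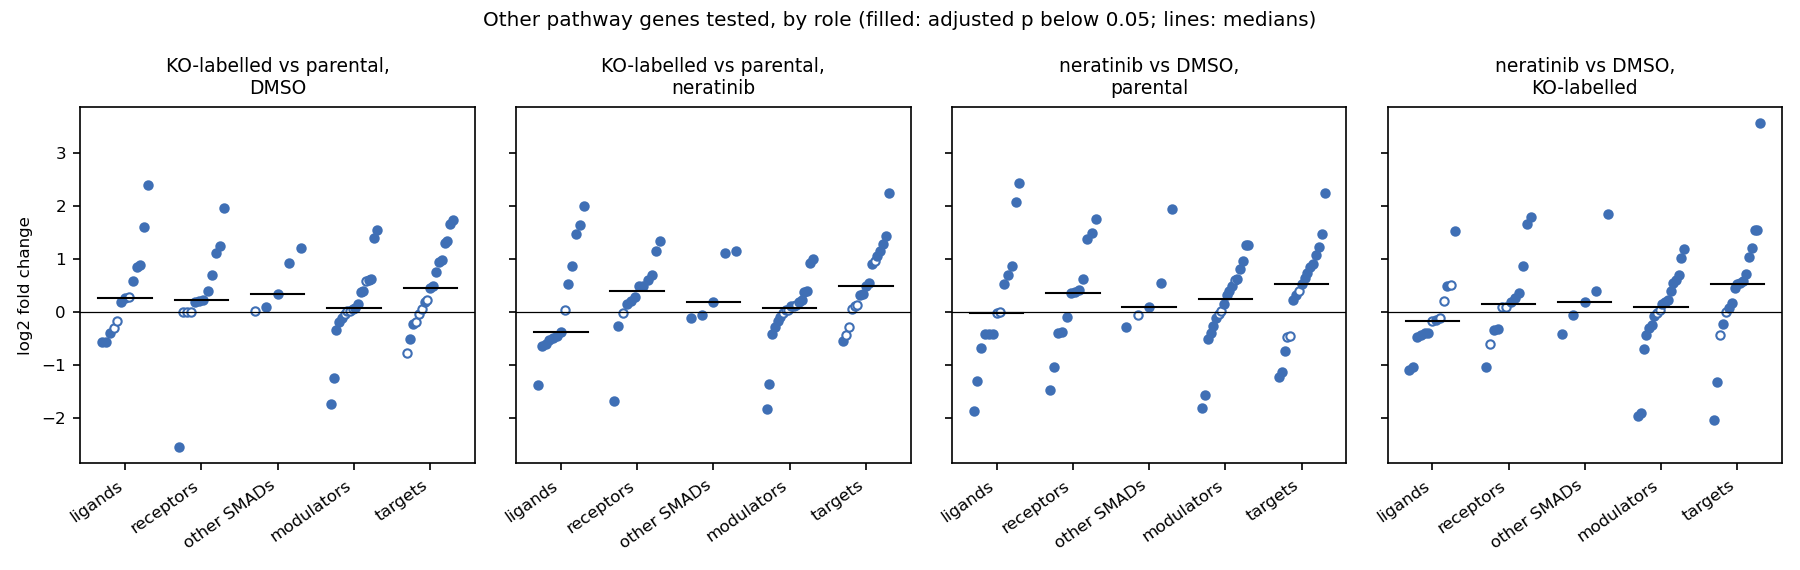
Log2 fold changes of the 65 other pathway genes tested, by role, in the 4 pairwise comparisons, with filled points for genes that passed, open points for those that did not and lines at the medians. Target genes have medians of 0.46, 0.49, 0.53 and 0.52, while ligands have 0.27, -0.38, -0.03 and -0.18. Receptors have 0.22, 0.38, 0.37 and 0.14, other SMADs 0.34, 0.19, 0.09 and 0.18, and modulators 0.07, 0.07, 0.24 and 0.09. Over all genes tested the medians are 0, -0.02, 0.04 and 0.02. Differences between the roles were not tested.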

How the data were processed

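Per the labels' protocols, RNA was sequenced as single 50-base reads from TruSeq RNA v2 libraries, a kit that does not mark strand. The authors deposited raw read counts, as whole numbers, for each gene. FastQC 0.11.7, STAR 2.7.9, edgeR 3.40.2 and the GRCh38 (hg38) genome are named, per the submitters' processing notes, and the counting program, annotation and strand setting are not given in the sources used here. Of 28395 lines, 581 without a symbol (0.088% to 0.124% of counts) were left out.

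Counts were filtered with filterByExpr, scaled by TMM and fitted with edgeR 4.0.16 (R 4.3.3), with 1 mean per group and 8 residual degrees of freedom. The quasi-likelihood tests add to these 8 the prior degrees of freedom that edgeR estimates over all genes. Adjusted p is Benjamini-Hochberg over all 16208 genes, called below 0.05. The SE was taken as the absolute log2 fold change divided by the square root of the quasi-likelihood F statistic. It therefore carries the spread that edgeR moderates over all genes. The 95% intervals multiply this SE by a t quantile for the 8 residual degrees of freedom, without the prior ones. They are therefore wider than the tests imply, and can include 0 for a gene that was called. The fit was tested on simulated counts, drawn with the spread estimated from these libraries. That test therefore cannot show whether this spread is technical. Spearman correlations within groups lay between 0.9983 and 0.9987, and no libraries were identical. The members and lists were chosen with earlier results of these data known. Outside the members and BRD8, the text names, per comparison, the 3 largest called rises and falls among the other pathway genes that reached 1 CPM in a group compared, and the 2 genes most like each member. Values of the other SMAD genes, and of named genes in further comparisons, were added after they were seen. Alternatives used DESeq2 1.42.0, other scalings and filters, only the groups compared, a fixed coefficient of variation, a replicate block and each library left out.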

Additional observations from a re-analysis of the deposited data

Results flagged for a closer look

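Genes whose neratinib response differed between KO-labelled and parental cells, by a test of the difference itself, are listed here with that difference on the log2 scale (KO-labelled minus parental, edgeR quasi-likelihood adjusted p below 0.05). Among the members these were TGFB2 at -1.69, BAMBI at -0.85, ID1 at -0.29, ID3 at -0.27, ID2 at 0.15 and SKIL at 0.55. BAMBI was the only 1 of these 6 that rose with neratinib in parental cells and fell in KO-labelled cells with both changes called. Of the other pathway genes named, CCN2 was at 1.32, ITGB6 at 0.91, KLF10 at 0.83, GDF5 at -0.82, TGFBI at -0.76 and BMP4 at -0.69. The calls for TGFB2 and CCN2 were lost in fits without certain single libraries, as given above. Of all genes tested, 46.1% passed the same test, so that passing it does not set the genes listed here apart. Groups of 3 libraries were not tested for outlying samples.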

How the results depend on the processing

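Across the alternatives no called value of a member changed sign, 957 values stayed on the same side of the threshold, 16 lost the call and 12 gained it. Of the 16 losses 12 came with a coefficient of variation of 0.1. Under it the interaction was called for 2 members (TGFB2 and BAMBI) in place of 6 and for 11 in place of 38 other pathway genes. Of all 16208 genes tested, 1436 had a called interaction there in place of 7468. Pairwise calls were lost too. Members called with the KO label were 6 in DMSO and 8 in neratinib, in place of 8 and 10. With neratinib they were 6 in parental and 7 in KO-labelled cells, in place of 8 and 9. Other pathway genes called in these comparisons were 36, 42, 49 and 40, in place of 48, 53, 56 and 54. Over all genes 6974, 6950, 10265 and 9308 were called, in place of 11609, 11605, 13077 and 12519. A filter at a mean of at least 5 CPM leaves out TGFB2 and 25 of the 65 other genes. Of the 40 other genes left, 31, 34 and 37 were called with the KO label in DMSO, with it in neratinib and with neratinib in parental cells (48, 53 and 56 of 65 before). Of all 11103 genes left, 8871, 8768 and 9774 were called in these comparisons. With this filter 1 member changed at least 2-fold with the KO label in neratinib, and 0 had an interaction of at least 2-fold. Leaving out each library in turn gave 0 to 1 such interactions, 5 to 6 members with an interaction, and 2 to 3 members changed at least 2-fold with the KO label in DMSO. Under DESeq2 or its size factors, ID4 fell just below 2-fold there. With library totals alone, the median of all genes moved to 0.12 with neratinib in parental cells.

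Same-numbered libraries did not deviate together (correlations of -0.02 to 0.04 over 18 pairs, none above 0.1, and 1 of 12 libraries correlated best with its own number in all other groups), so the numbers were not taken as pairs. A fit with the replicate block gave 8, 10, 8, 9 and 6 members called in the 5 comparisons, as without it, and 53 in place of 54 other genes with neratinib in KO-labelled cells. Depth limits TGFB2 most, at 20 and 27 counts per group in DMSO.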

Other observations

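ID2-AS1, an antisense transcript that shares 38 exon bases with ID2, was looked at after the ID2 values had been seen. It was at 0.629, 0.376 and 0.528 CPM in parental DMSO and 2.49, 2.33 and 2.47 CPM in parental neratinib libraries, and at 0.836, 0.455 and 1.13 CPM in KO-labelled DMSO and 1.80, 2.13 and 2.01 CPM in KO-labelled neratinib libraries. With neratinib it rose by 2.24 (SE 0.207) and 1.35 (SE 0.198) on the log2 scale in parental and KO-labelled cells (edgeR quasi-likelihood adjusted p = 3.13e-13 and 5.72e-08), while ID2 had log2 changes of -0.06 and 0.09. The libraries do not mark strand, so reads from the shared bases cannot be assigned to either gene.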
